A study of Mus musculus with 15 samples.

Results

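The 28 genes described here make, regulate and move cholesterol in mouse liver. They were listed by symbol from what their products are known to do, with earlier results of these data already known. The list is therefore not independent of the data. All 28 were found among the 24411 genes of the count files. The list holds 19 enzymes of cholesterol synthesis, 4 genes of the regulatory system that senses sterols, and 5 genes of sterol carriage and efflux. It names no lipoprotein receptor, so uptake from the blood is not covered by a receptor gene.

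The data are bulk RNA-seq counts of polyadenylated RNA, with 15 mouse liver libraries in 3 groups. The 6 LATS_KO libraries were labelled as a knockout of Lats, the Hippo pathway kinases that restrain the transcriptional coactivator YAP. The 5 YAP_OE libraries were labelled as overexpressing Yap. The 4 TdTomato libraries, named for a red fluorescent protein, were the controls, and the design text speaks of wild type. The sources used here give no promoter, Cre line, vector, allele, strain, age or time for any group. The labels do not tie each library to an animal of its own, and p-values therefore measure only the spread between libraries, which may be technical.

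Cholesterol is built from acetyl-CoA in the cytosol and the endoplasmic reticulum. The mevalonate part of the pathway makes isoprenoid units, the squalene part joins and closes them into lanosterol, and the sterol part trims lanosterol to cholesterol. When sterols are low, SCAP escorts the transcription factor SREBP2 to the Golgi, where it is cut and released to switch on nearly every enzyme gene of the pathway. When sterols are high, INSIG1 and INSIG2 hold SCAP in the endoplasmic reticulum, while oxysterol-activated LXR raises the efflux pumps. SREBPs bind DNA together with partners such as NF-Y, which reads CCAAT boxes.

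Promoter sequence is shown for 3 members on which the results turn: the mevalonate enzymes Hmgcs1 and Mvd, and the regulator Insig2. Each line holds the 250 bases before an annotated start, 5′ to 3′ on the strand of the gene, from RefSeq on GRCm38.p6. Capitals mark the letters TCACNCCAC, a sterol regulatory element, and CCAAT, both searched on both strands, so that a CCAAT box on the other strand reads ATTGG. No 2 marked motifs overlap in these 3 windows. Hmgcs1 lies at chr13:119690101-119690350 on the plus strand, Mvd at chr8:122443423-122443672 on the minus strand, and Insig2 at chr1:121332590-121332839 on the minus strand.
Hmgcs1: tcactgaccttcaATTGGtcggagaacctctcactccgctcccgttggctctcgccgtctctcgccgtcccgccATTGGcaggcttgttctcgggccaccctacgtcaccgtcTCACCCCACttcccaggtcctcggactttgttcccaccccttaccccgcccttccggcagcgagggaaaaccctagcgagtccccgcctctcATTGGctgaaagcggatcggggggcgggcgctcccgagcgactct
Mvd: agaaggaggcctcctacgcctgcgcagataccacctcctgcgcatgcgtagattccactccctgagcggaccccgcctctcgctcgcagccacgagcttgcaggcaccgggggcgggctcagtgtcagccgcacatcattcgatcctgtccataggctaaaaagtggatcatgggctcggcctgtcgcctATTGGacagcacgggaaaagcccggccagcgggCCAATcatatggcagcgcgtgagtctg
Insig2: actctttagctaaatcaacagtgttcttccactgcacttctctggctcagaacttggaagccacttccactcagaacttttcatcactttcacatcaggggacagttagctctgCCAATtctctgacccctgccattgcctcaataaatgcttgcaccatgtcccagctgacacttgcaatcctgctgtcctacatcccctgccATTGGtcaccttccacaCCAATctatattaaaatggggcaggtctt
The Hmgcs1 window holds 3 CCAAT boxes and the sterol regulatory element, whose first base lies at -137 from the start. The Mvd window holds 2 CCAAT boxes and the Insig2 window 3. The table lists 3 starts for Insig2, and the 250 bases before each of the other 2 hold 0 CCAAT boxes.

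Promoters of 23 of the 28 genes were in the table. A CCAAT box occurred within 250 bases before to 50 bases after a start in 20 of these 23 genes, or 87.0%, and in 15 of the 16 enzyme genes, or 93.8%. The same letters occurred in 41.1% of all 27025 genes of the table and in 42.9% of the 9978 genes that were both in the table and tested here. Acat2, the thiolase at the head of the mevalonate part, was the enzyme gene without one. The sterol regulatory element in its exact letters was found in 1 of 23 members, or 4.35%, and in 1.44% of all genes. The LXR element, a perfect direct repeat with 4 spacer bases, was found in 0 of 23 members and in 4 of all 27025 genes, or 0.0148%. These matches describe letters in a short window and show no binding.

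A library held 6166680 to 28225360 counts on genes. Libraries TdTomato 1 and LATS_KO 3 stood apart: unmapped reads made up 78.5% and 89.9% of them, while the other 13 libraries had 2.53% to 16.7%, and 8501 and 9710 genes were detected, against at least 13372. Results that rest on them are also given without both. Yap1 had 146 to 212 CPM (gene counts brought to a common library size, scaled by TMM) in YAP_OE livers, 66.0 to 86.4 CPM in LATS_KO livers and 94.9 to 115 CPM in TdTomato livers. It rose in YAP_OE livers (log2 fold change 0.82 ± 0.17 SE, adjusted p = 0.00433). In LATS_KO livers every library lay below the lowest TdTomato library for Yap1, with a log2 fold change of -0.41 that did not pass the test. Lats1 ranged from 0 to 27.4 CPM in LATS_KO livers and from 0 to 46.0 CPM in TdTomato livers, with both zeros in the libraries that stood apart, and the difference did not pass the test (-0.94 ± 1.00, adjusted p = 0.620). Lats2 ranged from 7.67 to 41.0 CPM in LATS_KO livers and from 0 to 19.6 CPM in TdTomato livers (0.58 ± 0.75, adjusted p = 0.695). Gene counts do not separate exons and the labels do not say which part of either gene was removed, so these values do not check the label of the LATS_KO libraries. All 8 hepatocyte markers had counts in every library.

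RNA of the cholesterol synthesis enzymes, taken as a sum, was lower in livers of both manipulations than in TdTomato livers. Summed over the 19 enzymes, LATS_KO livers had 1079.9 CPM at the lowest, a median of 1572 CPM and 3532 CPM at the highest. The 5 YAP_OE livers had 1512, 2053, 2189, 1106 and 2411 CPM. The TdTomato livers had 4996, 4774, 3642 and 5232 CPM. Every LATS_KO and YAP_OE library lay below the lowest TdTomato library. LATS_KO 6 came closest to the controls, and the LATS_KO libraries were spread more widely (SD 983 CPM around a mean of 1921 CPM, n = 6) than the YAP_OE libraries (SD 533 CPM around 1854 CPM, n = 5) or the TdTomato libraries (SD 705 CPM around 4661 CPM, n = 4). Without TdTomato 1 and LATS_KO 3 the order of the groups was the same, since neither held an extreme of its group.

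**Figure D1:**
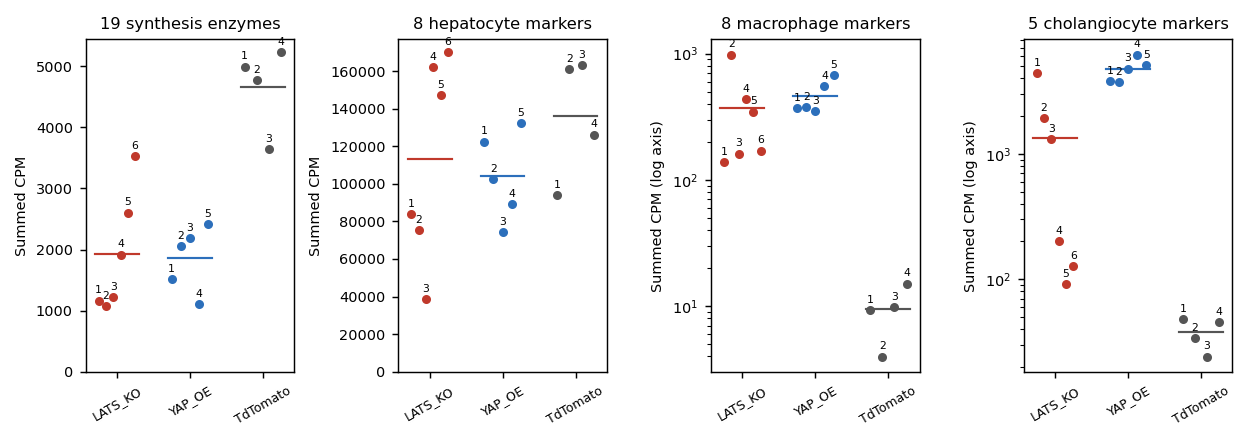
Summed CPM per library of the enzymes, of hepatocyte markers, of macrophage markers and of cholangiocyte markers; each point is a library with its replicate number, and the last 2 panels have log axes. All LATS_KO and YAP_OE libraries lie below the lowest TdTomato library in summed enzyme CPM, while their hepatocyte marker sums overlap those of TdTomato libraries, although each of the 8 hepatocyte markers had a log2 fold change below zero in both comparisons.

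Markers of other cell types moved with the groups. Of all genes tested, 10% rose in LATS_KO livers and 17.9% rose in YAP_OE livers. Summed macrophage markers were 139 to 983 CPM in LATS_KO livers, 352 to 675 CPM in YAP_OE livers and 3.97 to 15 CPM in TdTomato livers. All 8 macrophage markers rose in LATS_KO livers and 7 of 8 rose in YAP_OE livers, and 5 of the 8 were at 0 in TdTomato 1. Summed cholangiocyte markers were 91.4 to 4377 CPM in LATS_KO livers, 3710.0 to 6182 CPM in YAP_OE livers and 24.1 to 47.9 CPM in TdTomato livers, with 4 of 5 markers higher in each manipulation. Of 6 stellate cell markers, 4 rose in LATS_KO livers and 6 in YAP_OE livers. Endothelial markers rose in 2 of 5 in each manipulation and neutrophil markers in 2 of 4 in LATS_KO and 1 of 4 in YAP_OE livers, while the 5 lymphocyte markers were too low to test. Their part in the lower cholesterol genes was not tested. In bulk RNA, fewer hepatocytes and less RNA per hepatocyte cannot be told apart.

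The summed level of the hepatocyte markers was 38711 to 170228 CPM in LATS_KO livers, 74190.2 to 132097 CPM in YAP_OE livers and 93918 to 163234 CPM in TdTomato livers, so the sums overlapped. Marker by marker, all 8 lay below zero in both comparisons. In LATS_KO livers 1 of 8 fell, as did 0.973% of all genes tested. An unadjusted p under 0.05 was found for 2 of 8 and, in either direction, for 25.3% of all genes. The median log2 fold change of the 8 was -0.55. In YAP_OE livers 3 of 8 fell, as did 10.8% of all genes. An unadjusted p under 0.05 was found for 6 of 8 and, in either direction, for 39.6% of all genes. Wholly below the TdTomato libraries lay 5 of 8, and 13.4% of all genes. The median of the 8 markers was -1.51. That median lies below the -1.18 of the cholesterol genes in YAP_OE livers, and the part of the hepatocyte marker RNA in the lower cholesterol genes was not tested. Per 1000 CPM of hepatocyte markers, the enzymes summed to 18.4 ± 7.25 CPM in LATS_KO livers (SD, n = 6), 18.5 ± 7.04 CPM in YAP_OE livers (n = 5) and 36.7 ± 13.6 CPM in TdTomato livers (n = 4). On this scale the ranges overlapped: 11.8 to 31.7 in LATS_KO, 12.4 to 29.5 in YAP_OE and 22.3 to 53.2 in TdTomato livers. The highest LATS_KO value on this scale was that of LATS_KO 3 and the highest TdTomato value that of TdTomato 1, the libraries with most reads unmapped. Without both, the values were 11.8 to 20.7 in LATS_KO and 22.3 to 41.5 in TdTomato livers, which did not overlap, while YAP_OE 3 still lay above the lowest TdTomato library.

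The question of the first comparison was how loss of Lats altered liver expression. In LATS_KO livers 11 of the 28 genes fell and 0 rose against TdTomato livers, by edgeR's quasi-likelihood test in a fit of all 15 libraries with an adjusted p under 0.05. Of all 13055 genes tested, 0.973% fell, 10% rose and 11% passed in either direction. The median log2 fold change of the members was -0.96, beside 0.13 over all genes tested, and 24 of 28 lay below zero. At an unadjusted p under 0.05, which 25.3% of all genes passed, 19 members were lower and 2 were higher. DESeq2 and voom with quality weights each called 2 members higher, beside 2709 of 14496 and 2109 of 13055 genes in that order. A fit of only the LATS_KO and TdTomato libraries called 0 members and 1 gene of all, with a members' median of -1.01. That fit also tested fewer genes, 12020. Without TdTomato 1 and LATS_KO 3, 10 members fell and 1 rose, beside 429 genes lower and 1816 higher of 13256 tested. Of the 11, 7 were kept, and Mvk, Fdps, Cyp51 and Msmo1 were lost. Nsdhl, Hsd17b7 and Dhcr7 (lower) and Abcg1 (higher) were gained.

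The question of the second comparison was how overexpressed Yap altered liver expression. In YAP_OE livers 14 of the 28 genes fell and 0 rose against TdTomato livers. Of all genes tested, 10.8% fell, 17.9% rose and 28.7% passed in either direction, or 1412 lower and 2332 higher. The median log2 fold change of the members was -1.18, beside 0.17 over all genes tested, and 24 of 28 lay below zero. At an unadjusted p under 0.05, which 39.6% of all genes passed, 20 members were lower and 2 were higher. DESeq2 and voom with quality weights again called 2 members higher each, beside 3795 of 14841 and 4698 of 13055 genes in that order. A fit of only the YAP_OE and TdTomato libraries kept all 14. Without TdTomato 1 and LATS_KO 3, 20 members fell, the 14 among them, and 1 rose. That fit also called more genes over the whole table, 2808 lower and 3608 higher of 13256 tested. Without TMM scaling, which raised the median of all genes by 0.56 on the log2 scale, 612 genes were lower and 3265 higher, 8 of the 14 calls were kept, and 3 members, Lbr, Abcg1 and Abcg5, rose. The 2 comparisons share the TdTomato libraries and are not independent of each other.

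Single libraries decided many of these calls. In LATS_KO livers, leaving out TdTomato 2, TdTomato 4, LATS_KO 1, LATS_KO 2 or LATS_KO 4 brought the members lower to 4, 5, 6, 6 and 7. Hmgcs1, Idi1 and Fdft1 passed whichever of the 15 libraries was left out. Sqle failed without TdTomato 4 (adjusted p = 0.0549), Mvd without TdTomato 2 (0.0600), and Insig2 without TdTomato 2 (0.0640) or TdTomato 3 (0.0556). Cyp51 failed without 5 libraries (TdTomato 1, 2 and 4, LATS_KO 1 and 2), with adjusted p-values up to 0.0896, and Lss without 6 (TdTomato 2, 3 and 4, LATS_KO 1, 2 and 4), up to 0.108. Fdps failed in 11 of the 15 cases, Msmo1 in 10 and Mvk in 12, with adjusted p-values up to 0.117, 0.107 and 0.167 in that order of genes.

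In YAP_OE livers, leaving out TdTomato 2 brought the members lower to 9. Idi1, Hmgcs1, Fdps, Msmo1, Hsd17b7, Ebp, Scap and Insig2 passed whichever library was left out. Mvd failed without TdTomato 2 (adjusted p = 0.0598) and Nsdhl without TdTomato 2 or TdTomato 4 (up to 0.0665). Mvk failed without TdTomato 2, TdTomato 4 or YAP_OE 4 (up to 0.0670), Cyp51 without TdTomato 4, YAP_OE 1 or YAP_OE 4 (up to 0.0823), and Dhcr7 without TdTomato 2, YAP_OE 1 or YAP_OE 4 (up to 0.0527). Tm7sf2 failed without any of those 4 libraries, TdTomato 2, TdTomato 4, YAP_OE 1 and YAP_OE 4 (up to 0.0687).

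**Figure D2:**
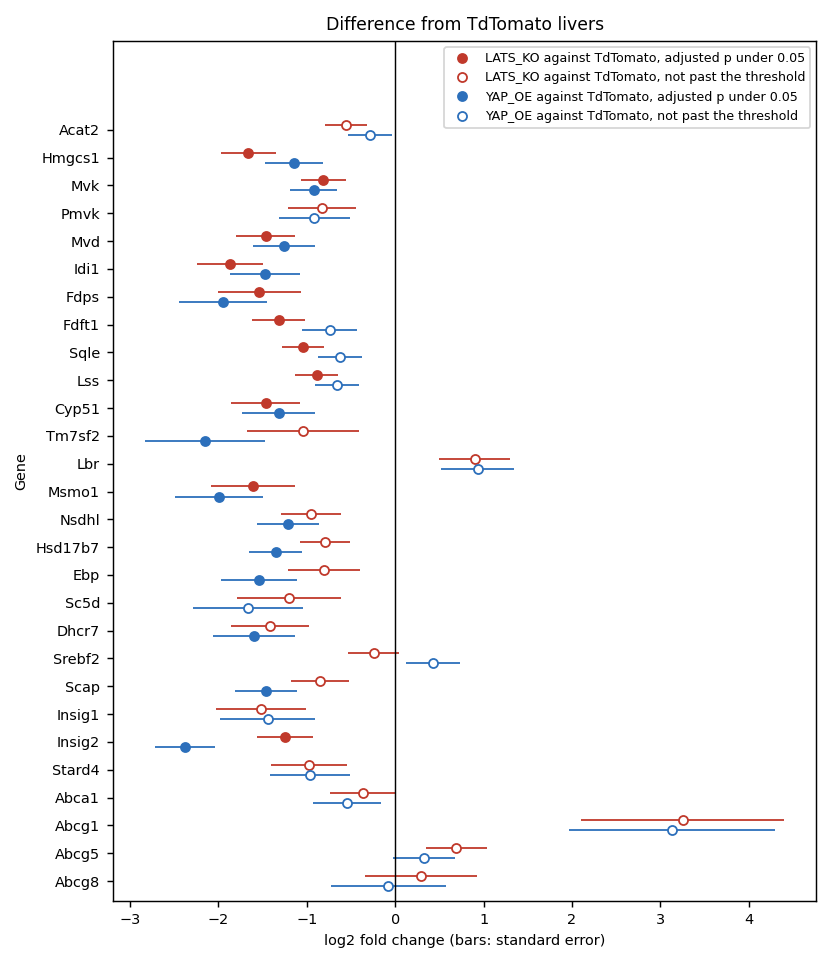
Log2 fold change of each member against TdTomato livers for LATS_KO (red) and YAP_OE (blue), with bars of 1 standard error; filled points had an adjusted p under 0.05 in edgeR's quasi-likelihood test. In both comparisons 24 of 28 members lie left of zero, with Lbr, Abcg1 and Abcg5 to the right in both.

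The mevalonate part moved in both manipulations. Of its 7 genes, 5 fell in LATS_KO livers and 5 fell in YAP_OE livers, namely Hmgcs1, Mvk, Mvd, Idi1 and Fdps in each. Over all genes tested, 0.973% fell in LATS_KO livers and 10.8% in YAP_OE livers. Hmgcs1 (chromosome 13, 119690379 to 119708260, GRCm38, GENCODE M21) encodes the cytosolic HMG-CoA synthase that commits acetyl-CoA units to the pathway. It had 149 CPM at the lowest, a median of 216 CPM and 410.0 CPM at the highest in LATS_KO livers. It had 281, 396, 442, 163 and 418 CPM in YAP_OE livers, against 767, 825, 576 and 842 CPM in TdTomato livers. No LATS_KO or YAP_OE library reached the lowest TdTomato library. On the log2 scale it stood at -1.66 ± 0.31 in LATS_KO livers (adjusted p = 0.00671) and -1.15 ± 0.33 in YAP_OE livers (adjusted p = 0.0177).

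Idi1 (chromosome 13, 8885501 to 8892451) encodes the isomerase that supplies dimethylallyl diphosphate. It ranged from 12.3 to 59.9 CPM in LATS_KO livers, with a median of 34.3 CPM. It had 40.4, 58.5, 63.3, 24.5 and 58.2 CPM in YAP_OE livers, against 107, 146, 99.4 and 189.7 CPM in TdTomato livers. The groups again did not overlap with the controls. Idi1 had the lowest log2 fold change of any member in LATS_KO livers, -1.87 ± 0.37 (adjusted p = 0.00818), and fell by 1.47 ± 0.39 on the log2 scale in YAP_OE livers (adjusted p = 0.0130).

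Fdps (chromosome 3, 89093588 to 89101959) encodes farnesyl diphosphate synthase, whose product also feeds protein prenylation. It ranged from 64.7 to 422 CPM in LATS_KO livers, with a median of 181 CPM. It had 96.5, 149, 167, 64.9 and 285 CPM in YAP_OE livers, against 722, 535, 379 and 718 CPM in TdTomato livers. All YAP_OE libraries lay below the controls, while LATS_KO 6 lay above TdTomato 3. Its log2 fold change was -1.54 ± 0.47 in LATS_KO livers (adjusted p = 0.0474) and -1.95 ± 0.50 in YAP_OE livers (adjusted p = 0.0109).

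The kinase Mvk and the decarboxylase Mvd, which act between mevalonate and the isoprenoid units, also fell. Mvd had log2 fold changes of -1.46 ± 0.33 in LATS_KO livers (adjusted p = 0.0133) and -1.26 ± 0.35 in YAP_OE livers (adjusted p = 0.0156). Mvk stood at -0.81 ± 0.25 in LATS_KO livers (adjusted p = 0.0499), at the edge of the threshold, and at -0.92 ± 0.26 in YAP_OE livers (adjusted p = 0.0183). The remaining pair of mevalonate genes did not pass. Pmvk, the second kinase of the branch, had -0.83 ± 0.38 in LATS_KO livers and -0.91 ± 0.40 in YAP_OE livers. Acat2, the thiolase, had -0.56 ± 0.24 in LATS_KO livers and -0.28 ± 0.25 in YAP_OE livers, the smallest differences among the enzymes below zero.

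The squalene part differed between the comparisons in its calls. All 3 of its genes fell in LATS_KO livers and 0 of 3 passed in YAP_OE livers, where 0.973% and 10.8% of all genes fell. In YAP_OE livers all 3 had an unadjusted p under 0.05, as did 39.6% of all genes in either direction. Voom called all 3 lower there, and also 4174 of all 13055 genes. Fdft1 (chromosome 14, 63145150 to 63179578), squalene synthase, takes the first step that serves sterols alone. It ranged from 64.8 to 194 CPM in LATS_KO livers, with a median of 94.8 CPM, and had 138, 188, 175, 128 and 199.7 CPM in YAP_OE livers, against 381, 251, 203 and 274 CPM in TdTomato livers. Every LATS_KO and YAP_OE library lay below the lowest control, though YAP_OE 5 was close to it. The difference on the log2 scale was -1.32 ± 0.30 in LATS_KO livers (adjusted p = 0.0130) and -0.74 ± 0.31 in YAP_OE livers (adjusted p = 0.0869).

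Sqle (chromosome 15, 59315077 to 59331192), the oxygen-requiring epoxidase and a known control point of the pathway, ranged from 70.9 to 154 CPM in LATS_KO livers, with a median of 111 CPM. It had 163, 163, 146, 98.9 and 176 CPM in YAP_OE livers, against 200.3, 232, 188 and 303 CPM in TdTomato livers. Both groups lay wholly below the controls. The log2 fold change was -1.05 ± 0.24 in LATS_KO livers (adjusted p = 0.0131) and -0.63 ± 0.25 in YAP_OE livers (adjusted p = 0.0695). Lss, lanosterol synthase, stood at -0.89 ± 0.24 in LATS_KO livers (adjusted p = 0.0285) and -0.66 ± 0.25 in YAP_OE livers (adjusted p = 0.0630). The direct comparison of YAP_OE with LATS_KO called none of the 3, with log2 fold changes of 0.58 ± 0.28 for Fdft1, 0.42 ± 0.22 for Sqle and 0.23 ± 0.23 for Lss, so a difference between the manipulations was not shown.

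The sterol part had the opposite balance of calls: 2 of its 9 genes fell in LATS_KO livers and 7 of 9 fell in YAP_OE livers. Of all genes tested, 0.973% fell in LATS_KO livers and 10.8% in YAP_OE livers. Lower calls were thus more common in YAP_OE livers over the whole table. In both comparisons 8 of the 9 sterol genes lay below zero. Cyp51 and Msmo1 fell in both. Msmo1 (chromosome 8, 64718139 to 64733792), the C4 methylsterol oxidase, ranged from 51.0 to 300.5 CPM in LATS_KO livers, with a median of 110.4 CPM. It had 77.7, 108, 124, 54.6 and 163 CPM in YAP_OE livers, against 645, 297, 223 and 512 CPM in TdTomato livers. The YAP_OE libraries lay below all controls, while LATS_KO 6 lay above 2 of them. On the log2 scale it stood at -1.61 ± 0.47 in LATS_KO livers (adjusted p = 0.0405) and -1.99 ± 0.50 in YAP_OE livers (adjusted p = 0.0100).

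Cyp51 (chromosome 5, 4081145 to 4104746), lanosterol 14-alpha demethylase, ranged from 68.1 to 287 CPM in LATS_KO livers, with a median of 118 CPM. It had 119.9, 191, 188, 93.2 and 220.3 CPM in YAP_OE livers, against 452, 349, 274 and 547 CPM in TdTomato livers. Among LATS_KO libraries, LATS_KO 6 alone exceeded the lowest control. Its log2 fold change was -1.47 ± 0.39 in LATS_KO livers (adjusted p = 0.0272) and -1.32 ± 0.41 in YAP_OE livers (adjusted p = 0.0276).

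Hsd17b7, Ebp, Nsdhl, Dhcr7 and Tm7sf2 fell in YAP_OE livers and did not pass in LATS_KO livers. Hsd17b7, the 3-ketosteroid reductase, had -1.35 ± 0.30 in YAP_OE livers (adjusted p = 0.00596) and -0.79 ± 0.29 in LATS_KO livers (adjusted p = 0.0890). Ebp, the sterol isomerase, had -1.54 ± 0.43 in YAP_OE livers (adjusted p = 0.0165) and -0.80 ± 0.41 in LATS_KO livers (adjusted p = 0.239). Dhcr7, the last reductase on the route through 7-dehydrocholesterol, had -1.59 ± 0.46 in YAP_OE livers (adjusted p = 0.0196) and -1.41 ± 0.44 in LATS_KO livers, where it sat just outside the threshold (adjusted p = 0.05 after rounding) although no library reached a control. Nsdhl, the C4 decarboxylase, had -1.21 ± 0.35 in YAP_OE livers (adjusted p = 0.0195) and -0.95 ± 0.34 in LATS_KO livers (adjusted p = 0.0822). The test of YAP_OE against LATS_KO called none of these genes.

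Tm7sf2, a sterol C14 reductase, showed how unevenly the LATS_KO libraries behaved. It had 26.8, 13.8, 16.4, 131, 156 and 187 CPM in the 6 LATS_KO libraries in replicate order, and 24.5, 46.7, 51.6, 19.5 and 62.4 CPM in YAP_OE libraries, against 138, 209, 181 and 201 CPM in TdTomato libraries. LATS_KO 1, 2 and 3 lay with or below the YAP_OE libraries, and LATS_KO 4, 5 and 6 lay near the controls. The difference on the log2 scale was -2.15 ± 0.68 in YAP_OE livers (adjusted p = 0.0275) and -1.04 ± 0.63 in LATS_KO livers (adjusted p = 0.336). An exon of Tm7sf2 overlaps Vps51 on the same strand. Reads that fit both genes may have been set aside as ambiguous and be missing from its count.

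Sc5d, lathosterol oxidase, had the same split, with 84.3, 52.9, 47.7, 323, 403 and 573 CPM in the 6 LATS_KO libraries in replicate order. It had 125, 213, 257, 109 and 194 CPM in YAP_OE libraries, against 558, 713, 582 and 430.4 CPM in TdTomato libraries, and passed in neither comparison (-1.21 ± 0.59 in LATS_KO livers and -1.67 ± 0.62 in YAP_OE livers). Over the 9 sterol genes together, LATS_KO libraries had 547, 470.0, 428, 1162, 1488 and 1988 CPM in replicate order. In the same order their cholangiocyte marker sums were 4377, 1918, 1317, 200, 91.4 and 128 CPM and their hepatocyte marker sums were 83973, 75398, 38711, 162269, 147211 and 170228 CPM. The 3 libraries with the most cholangiocyte marker RNA were thus the 3 with the least sterol enzyme RNA, and the part of either in the other was not tested. The labels name no batch that separates these libraries. Technical measures differed along the same split. In replicate order, reads mapped to several places made up 5.65%, 5.09%, 0.703%, 10.1%, 9.93% and 11.9% of the reads. LATS_KO 3, with the lowest share, had 89.9% of its reads unmapped. The TMM factors were 1.12, 1.27, 1.46, 0.835, 0.728 and 0.742. The part of these measures in the uneven sterol genes was not tested.

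Lbr, the other C14 reductase, which is also the lamin B receptor of the nuclear envelope, stood above zero in both comparisons without passing. It had 31.6, 22.5, 21.3, 20 and 21.2 CPM in YAP_OE livers and 10.9 to 43.4 CPM in LATS_KO livers, against 5.89, 13.7, 14.9 and 14.3 CPM in TdTomato livers. All YAP_OE libraries exceeded all controls. The log2 fold change was 0.90 ± 0.40 in LATS_KO livers (adjusted p = 0.172) and 0.93 ± 0.41 in YAP_OE livers (adjusted p = 0.104).

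**Figure D3:**
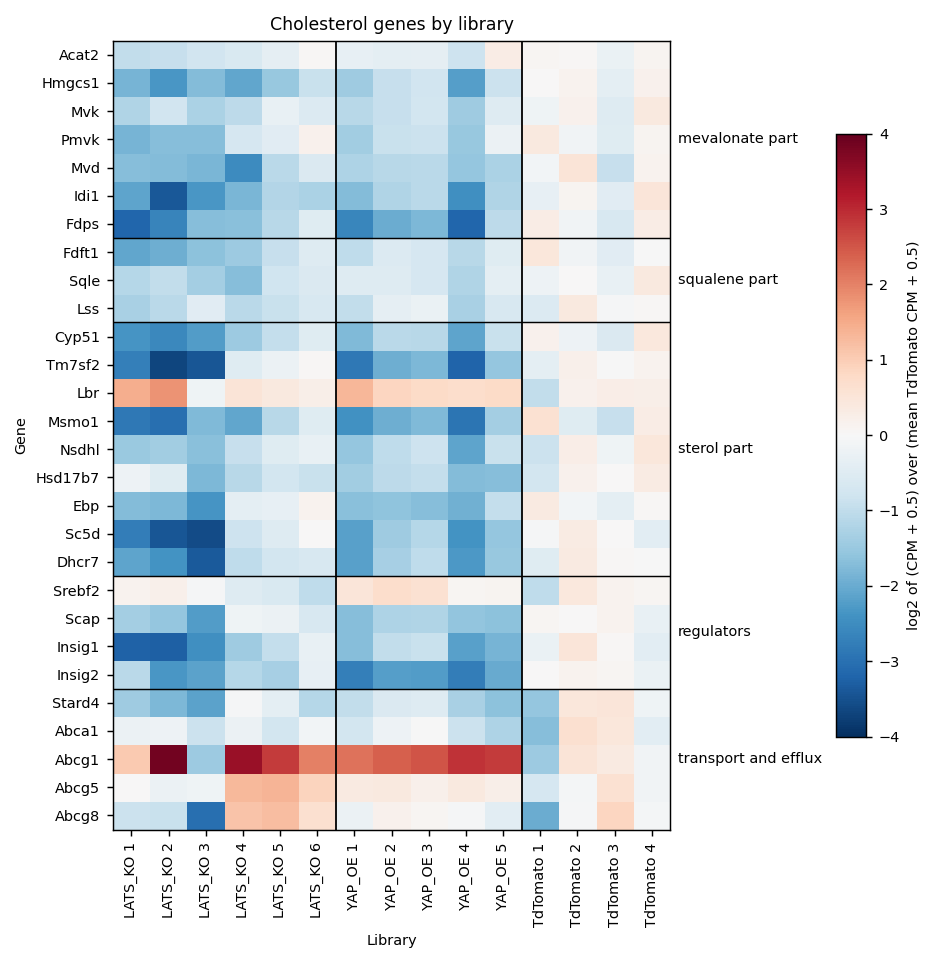
Log2 of CPM + 0.5 for each member in each library, relative to the mean of the TdTomato libraries, with members ordered by role and libraries by group. Most enzyme rows are below the controls in LATS_KO 1 to 4 and in all YAP_OE libraries, and nearer to them in LATS_KO 5 and 6.

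Counted library by library, most enzymes lay below the lowest control in each library except LATS_KO 6. In LATS_KO livers 17, 17, 17, 18, 13 and 8 of the 19 enzymes lay below the lowest TdTomato library, in replicate order. In YAP_OE livers the numbers were 18, 17, 16, 18 and 15 of 19. No share over all genes tested was computed for these counts by library, so they have no background beside them. Taken by gene over all 28 members, 6 had every LATS_KO library below every TdTomato library, against 1.90% of all genes tested, and 16 had every YAP_OE library below them, against 13.4% of all genes. The 6 were Hmgcs1, Idi1, Fdft1, Sqle, Dhcr7 and Insig2. In the opposite direction, 0 members lay wholly above the controls in LATS_KO livers (6.65% of all genes did) and 2, Abcg1 and Lbr, did so in YAP_OE livers (28.3% of all genes did).

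Among the regulators, Insig2 (chromosome 1, 121304353 to 121332589) fell in both manipulations. It ranged from 48.1 to 192 CPM in LATS_KO livers, with a median of 103 CPM, and had 36.4, 52.0, 51.1, 35.4 and 59.7 CPM in YAP_OE livers, against 244, 268, 256 and 204 CPM in TdTomato livers. Neither group overlapped the controls, and YAP_OE 1 to 5 lay within a narrow band. On the log2 scale it stood at -1.24 ± 0.32 in LATS_KO livers (adjusted p = 0.0212) and -2.37 ± 0.34 in YAP_OE livers (adjusted p = 0.00106), the lowest of any member there. Mouse liver is known for a liver-specific Insig2 transcript that insulin represses. Gene counts do not separate the transcripts that begin at its 3 RefSeq starts.

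Insig1 (chromosome 5, 28071363 to 28078662), itself a classical SREBP target, had log2 fold changes of similar size in both manipulations without passing. It ranged from 81.0 to 636 CPM in LATS_KO livers, with a median of 218 CPM, and had 238, 391, 419, 173 and 215 CPM in YAP_OE livers, against 650.2, 1086, 811 and 579 CPM in TdTomato livers. The YAP_OE libraries lay below the controls and the highest LATS_KO library lay among them. Its log2 fold change was -1.51 ± 0.51 in LATS_KO livers (adjusted p = 0.0697) and -1.44 ± 0.54 in YAP_OE livers (adjusted p = 0.0556).

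Scap (chromosome 9, 110333288 to 110384950), the escort of SREBP2, fell in YAP_OE livers. It had 57.6, 79.7, 82.3, 62.4 and 59.7 CPM in YAP_OE livers and 39.4 to 167 CPM in LATS_KO livers, against 199, 192, 209 and 152 CPM in TdTomato livers. The YAP_OE libraries did not overlap the controls. The difference on the log2 scale was -1.46 ± 0.35 in YAP_OE livers (adjusted p = 0.00768) and -0.85 ± 0.33 in LATS_KO livers (adjusted p = 0.109). Srebf2, which encodes SREBP2, passed in neither comparison, with -0.24 ± 0.29 in LATS_KO livers (adjusted p = 0.658) and 0.42 ± 0.30 in YAP_OE livers (adjusted p = 0.329). Its RNA level says nothing of how much SREBP2 was cut and released.

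**Figure D4:**
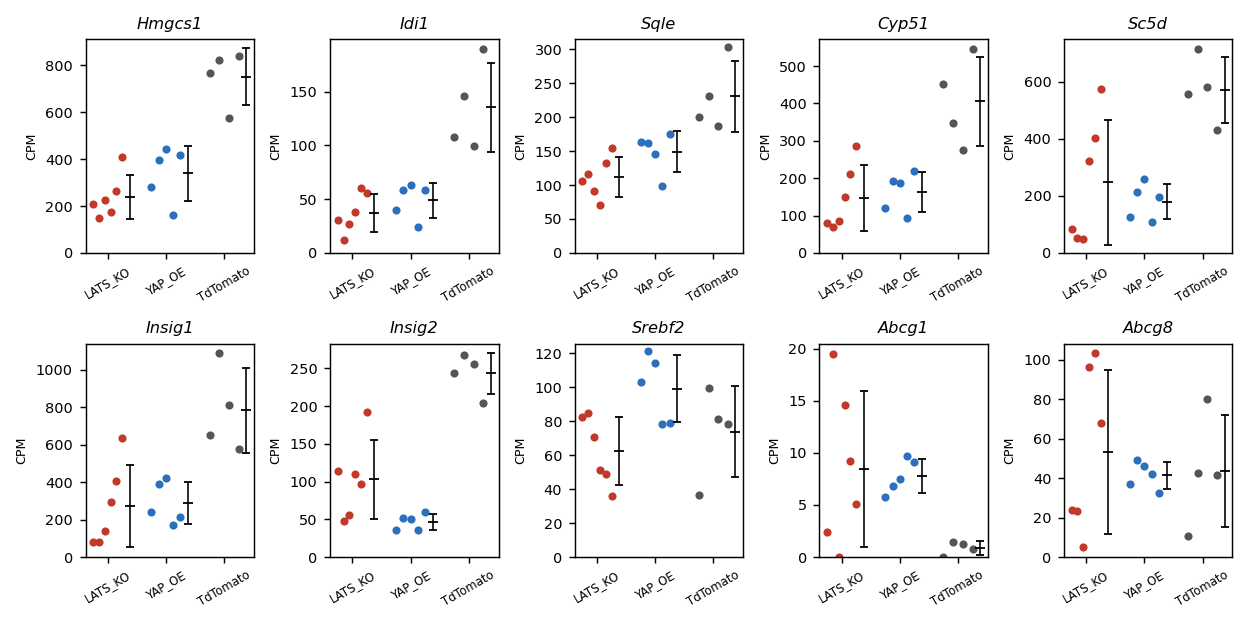
CPM per library of members on which the results turn, by group, with the group mean and SD beside the points. Insig2 in YAP_OE livers lies between 35.4 and 59.7 CPM, below every TdTomato library, of which the lowest has 204 CPM.

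None of the 5 carriage and efflux genes passed in either comparison in the main fit, although other settings called some of them. Without TdTomato 1 and LATS_KO 3, Abcg1 rose in both and Stard4 and Abca1 fell in YAP_OE livers. DESeq2 and voom called Abcg1 higher in both comparisons, and voom called Stard4 and Abca1 lower in both. RLE size factors, the fit of only these groups and no scaling also called Abcg1 higher in YAP_OE livers. Abcg5 was higher with voom in LATS_KO livers and without scaling in both. Abcg1, a sterol exporter that macrophages express strongly, had 2.38, 19.5, 0, 14.6, 9.17 and 5.05 CPM in LATS_KO livers in replicate order. It had 5.79, 6.82, 7.48, 9.69 and 9.13 CPM in YAP_OE livers, against 0, 1.49, 1.27 and 0.766 CPM in TdTomato livers. Both zeros fell in the libraries with most reads unmapped, and LATS_KO 2, with the highest Abcg1, also had the highest macrophage marker sum, 983 CPM. The log2 fold change was 3.25 ± 1.15 in LATS_KO livers (adjusted p = 0.0833) and 3.13 ± 1.16 in YAP_OE livers (adjusted p = 0.0554). The part of the macrophage RNA in Abcg1 was not tested.

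Abca1, which loads cholesterol onto apolipoprotein A-I, had -0.36 ± 0.37 in LATS_KO livers and -0.54 ± 0.38 in YAP_OE livers. Abcg5 and Abcg8, whose products form the heterodimer that exports sterols into bile, had 0.69 ± 0.34 and 0.29 ± 0.63 in LATS_KO livers, and 0.32 ± 0.35 and -0.08 ± 0.65 in YAP_OE livers. Stard4, a cytosolic sterol carrier, had -0.98 ± 0.43 in LATS_KO livers and -0.96 ± 0.45 in YAP_OE livers. The sign of Abcg8 turned with the scaling in YAP_OE livers and on leaving out TdTomato 1 or LATS_KO 5 in LATS_KO livers, so it has no stated direction.

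Compared directly, YAP_OE and LATS_KO livers did not differ in any of the 28 genes at an adjusted p under 0.05, while 0.988% of all genes passed. Of all genes 65 were higher, or 0.498%, and 64 lower, or 0.49%; without TMM scaling these were 65 and 28. At an unadjusted p under 0.05, which 14.6% of all genes passed, there were 2, Insig2 and Srebf2. DESeq2 called Insig2 alone, beside 482 genes higher and 376 lower of 14496 tested. Voom with quality weights called 9 members lower and 1 higher, beside 3623 genes lower and 3702 higher of 13055. Log2 fold changes of the members lay between -1.13 and 0.67 with a median of -0.12 and 16 of 28 below zero. The median was 0.17 without TMM scaling, with 7 of 28 below zero, and 0.14 with the replicate number as a block, with 10 of 28, so it has no stated direction. The libraries of the 2 groups overlapped for every member, while 4.76% of all genes lay wholly higher and 1.95% wholly lower. Insig2 had the lowest value, -1.13 ± 0.31 (adjusted p = 0.101), and passed when LATS_KO 2 or LATS_KO 3 was left out. Srebf2 had the highest, 0.67 ± 0.27 (adjusted p = 0.255). Without TdTomato 1 and LATS_KO 3, Hsd17b7 and Insig2 were lower in YAP_OE livers, as were 951 of all 13256 genes tested.

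Per kilobase of exon, the order of the members was led by the same gene in each group. Insig1 averaged 88.5 CPM per kilobase in LATS_KO livers, 92.9 in YAP_OE livers and 253 in TdTomato livers. Its SD was 70.9 in LATS_KO, 35.7 in YAP_OE and 72.8 in TdTomato livers, so its lead over the next gene lay within the spread in LATS_KO and YAP_OE livers. The next gene was Ebp in LATS_KO livers, at 84.2 CPM per kilobase, and Hmgcs1 in YAP_OE livers, at 74.0, and in TdTomato livers, at 164. Insig2 ranked 7 of 28 in LATS_KO livers, 16 of 28 in YAP_OE livers and 7 of 28 in TdTomato livers. Abcg1 was the lowest member in all 3 groups, at 1.16, 1.07 and 0.121 CPM per kilobase in LATS_KO, YAP_OE and TdTomato livers. As a share of all gene counts, the 28 genes held 0.201% to 0.597% of a library.

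Of a further 14 genes of sterol handling, 13 were tested. In LATS_KO livers 1 was higher and 0 lower, beside 10% and 0.973% of all genes tested. In YAP_OE livers 1 was higher and 1 lower, beside 17.9% and 10.8% of all genes. These counts do not set the list apart from the whole table. Soat1, which esterifies cholesterol for storage and is abundant in macrophages, rose in both. It had 0.444 to 7.18 CPM in LATS_KO livers, with a median of 2.93 CPM, and 1.72, 2.19, 2.36, 3.00 and 4.27 CPM in YAP_OE livers, against 0, 0.0552, 0.0794 and 0.0958 CPM in TdTomato livers. On the log2 scale it stood at 5.62 ± 0.98 in LATS_KO livers (adjusted p = 0.00525) and 5.37 ± 0.98 in YAP_OE livers (adjusted p = 0.00260), on control levels near zero. Its highest library was LATS_KO 2, which also had the highest macrophage marker sum, and the part of that RNA in Soat1 was not tested.

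Soat2, the hepatocyte counterpart, did not pass, with 0.40 ± 0.38 in LATS_KO livers and -0.11 ± 0.39 in YAP_OE livers. Stard5, a sterol-binding carrier, fell in YAP_OE livers. It had 74.7, 73.8, 75.9, 70.9 and 69.0 CPM in YAP_OE livers, against 210.1, 132, 123 and 111 CPM in TdTomato livers. The groups did not overlap, and the log2 fold change was -0.98 ± 0.29 (adjusted p = 0.0194). In LATS_KO livers Stard5 stood at -0.46 ± 0.27 (adjusted p = 0.322).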

How the data were processed

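Poly(A) RNA of mouse liver was read from directional libraries on a NovaSeq instrument, per the labels' protocols. The authors deposited whole-number counts per gene for each of the 15 libraries, in the column layout of STAR. FastQC, Trimmomatic, STAR and the mm10 genome are named in the submitters' processing notes, and their versions and the gene annotation are not given in the sources used here. The counts of the reverse strand were used, since the forward strand held 0.966% to 1.99% of strand-assigned counts. Lines that name no gene (14.2% to 92.5% of the reads of a library) entered neither the library sizes nor any test. The labels' text on RNA extraction concerns mice of a different study design, and nothing about the animals was read from it.

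From the deposited counts, CPM on TMM-scaled library sizes were computed, and 13055 genes passed the default filterByExpr filter (minimum count 10), among them all 28 members. Groups were taken from the titles. Differences were tested, two-sided, by quasi-likelihood in edgeR 4.0.16 (R 4.3.3), in a single fit of all 15 libraries with group as its only term and 12 residual degrees of freedom. P-values were adjusted by Benjamini-Hochberg over the whole table, and calls needed an adjusted p under 0.05. Errors of log2 fold changes are standard errors. The fit was tested on simulated data, in which every gene had the same spread beyond sampling noise. These data imitated neither the uneven LATS_KO libraries nor the libraries with most reads unmapped, and do not check the fit for those. Alternatives were RLE size factors, DESeq2 1.42.0, voom with quality weights in limma 3.58.1, other filters on low counts, the unstranded counts, a block for the replicate number, fits restricted to the groups of a comparison, and each library left out. After seeing the data, a fit without both libraries with most reads unmapped and a fit without scaling factors were added.

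The members and the lists were chosen with earlier results of these data known. The rule for named genes was all 28 members, genes of the list of other sterol genes that passed the test, and Lats1, Lats2 and Yap1. Soat2, which did not pass, was named outside this rule, beside Soat1. Other lists are given as counts. Every pair of libraries within a group differed by more than sampling noise. Depth limits rare genes most: Abcg1 had 0 counts in 2 libraries and at most 27 in a TdTomato library. Gene positions are those of GENCODE M21 on GRCm38.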

Additional observations from a re-analysis of the deposited data

Results flagged for a closer look

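Within each group the highest and lowest library of every member was compared with its nearest neighbour by Dixon's gap ratio. Of the 84 groups of libraries checked, 4 held a library that stood apart, and chance flags about 1 in 20 groups. Lbr in YAP_OE 1 was the highest of its group at 31.6 CPM, with the nearest at 22.5 CPM. Ebp in YAP_OE 5 was the highest of its group at 174 CPM, with the nearest at 111 CPM. Acat2 in TdTomato 3 was the lowest of its group at 69.8 CPM, with the nearest at 87.6 CPM. Lbr in TdTomato 1, a library with most of its reads unmapped, was the lowest of its group at 5.89 CPM, with the nearest at 13.7 CPM.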

How the results depend on the processing

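Depth and mapping limit 2 libraries most, and the control group has 4 libraries. Where an alternative moved a value, the cause was not tested. For LATS_KO against TdTomato, 1438 genes passed in all, against 3093 with DESeq2, 3504 with voom, 1 in a fit of only these groups, 740 with the replicate block and 2245 without both libraries with most reads unmapped. Members higher were 2 with DESeq2, 2 with voom, 1 without both libraries and 1 without scaling. Members lower were 17 with voom, and members and enzymes lower were 0 in the fit of only these groups. With each library left out in turn, 588 to 1798 genes passed in all, 0 to 1 members were higher, 4 to 16 members lower and 4 to 14 enzymes lower.

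For YAP_OE against TdTomato, 3744 genes passed, against 8872 with voom and 6416 without both libraries. Members higher were 2 with RLE size factors, DESeq2, voom and the fit of only these groups, 1 without both libraries and 3 without scaling. Members lower were 23 with voom and 8 without scaling, with 6 enzymes lower without scaling. With each library left out, 2585 to 4973 genes passed, 0 to 1 members were higher, 9 to 17 lower and 7 to 14 enzymes lower. For YAP_OE against LATS_KO, 129 genes passed, against 858 with DESeq2, 7325 with voom, 13 with the replicate block and 1688 without both libraries. Members lower were 1 with DESeq2, 9 with voom and 2 without both libraries, members higher were 1 with voom, and enzymes lower were 5 with voom and 1 without both libraries. With each library left out, 36 to 389 genes passed, 0 to 1 members were lower and 0 members higher or enzymes lower.

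Signs reversed only for members that had not passed. In LATS_KO livers Abcg8 had -0.10 with the replicate block and -0.037 to 0.75 with libraries left out, and Srebf2 had 0.20 without scaling. In YAP_OE livers Abcg8 had 0.13 with RLE size factors, 0.13 with DESeq2, 0.52 without scaling and -0.40 to 0.39 with libraries left out, while Acat2 had 0.21 and Abca1 0.057 without scaling. Leaving out scaling shifted the median log2 fold change of all genes by 0.33 in LATS_KO and 0.56 in YAP_OE livers against TdTomato, and RLE size factors shifted it by 0.18 in YAP_OE livers. In LATS_KO livers the passing genes were 1311 higher and 127 lower, against 2109 and 1395 with voom, 582 and 158 with the replicate block, and 1816 and 429 without both libraries.

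The replicate numbers were shared by the groups, but samples with the same number did not deviate together (13 pairs, correlations -0.25 to 0.23, 4 over 0.1). With the replicate block, 14 members fell in LATS_KO livers and 18 in YAP_OE livers, with the 11 and the 14 calls kept, and 0 passed between YAP_OE and LATS_KO.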
